A study of Mus musculus with 13 samples.

Results

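T cells that recognise antigen need a second signal from the cell that presents it, and the 6 genes described here encode the main surface molecules of that exchange on dendritic cells, macrophages and B cells. They are Cd80 and Cd86, the B7 ligands of CD28 and CTLA-4, Icosl, the B7 family ligand of ICOS, Cd40, the receptor through which CD40 ligand on helper T cells licenses dendritic cells, Tnfsf14, which encodes LIGHT, and Tnfrsf14, which encodes HVEM, the receptor of LIGHT and of the inhibitory receptor BTLA. They were taken by name, as 6 of the 561 genes of an nCounter mouse immunology panel, a hybridisation assay that counts barcoded probes without amplification. LIGHT and HVEM are also known from lymphocytes and granulocytes, so neither is confined to antigen-presenting cells.

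RNA came from CD45+ cells, isolated with magnetic beads from subcutaneous CT26 tumors, a colon carcinoma line of BALB/c mice, grown in 6-week-old female BALB/c mice. Tumors had received local X-ray radiotherapy as 5 fractions of 2 Gy (2 Gy × 5), a single dose of 7.5 Gy (7.5 Gy × 1) or no dose (0 Gy), where nothing states how many of the 5 fractions had been given by T2, and were taken in the early (T2), middle (T7), late (T14) and progression (T21) phases. A baseline sample preceded radiotherapy. Each of the 13 conditions had 1 sample, so a difference between 2 samples has no replicate check. The 95% intervals below (exact binomial, Clopper-Pearson) cover counting error only. Fewer cells of a type and less RNA per cell cannot be told apart in such bulk RNA.

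The samples were counted in 3 nCounter runs, the first with every T7 sample plus the T14 sample given 2 Gy × 5, the second with the other T14 and every T21 sample, and the third with the baseline and every T2 sample. The T7 samples therefore never shared a run with the T2 samples or the baseline, and run and phase cannot be told apart in those comparisons. Counts over all gene probes were 150567 to 650920 per sample, and 415 of 547 immune genes had a mean count above background. All 6 genes were among them, with raw counts of 13 to 601. Their counts exceeded the background of their own sample in all 13 samples, except for Icosl in the 0 Gy sample of T21, with 13 counts against a background of 15.5. Values below are normalized counts, scaled to the housekeeping genes of each sample, and levels were not compared between genes because each probe hybridises with its own efficiency.

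Markers that define the cells were uneven in these samples. Of 8 dendritic cell markers on the panel 6 were kept and Xcr1 was never above background. Of 9 B cell markers 4 were kept, and Pax5 and Cr2 were never above background. All 6 markers of CD45-negative stroma and endothelium were kept, with a summed level of 1469 to 7482 over the samples. The 8 pan-leukocyte genes, among them Ptprc, which encodes CD45, had a summed level of 856 to 5411. The part of any such cells in the results below was not tested.

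On the housekeeping scale all 6 genes had their highest level of the time course at T7 in each of the 3 arms, which makes 18 of 18 gene and arm pairs. With median of ratios this held for 14 of the 18, with total endogenous counts for 13 and with the pan-leukocyte genes for 6, all of Icosl, Tnfsf14 or Tnfrsf14. The values below are on the housekeeping scale. For Cd80, which is induced late in the activation of antigen-presenting cells, the 2 Gy × 5 samples measured 329 at T2, 557 at T7, 342 at T14 and 254 at T21. The samples given 7.5 Gy × 1 measured 310.1, 581, 210.1 and 228 in the same phases. The 0 Gy samples measured 204, 385, 203 and 136, and the baseline sample 263. Cd80 was above the 0 Gy sample of its phase in every irradiated sample, with the smallest gap in the 7.5 Gy × 1 sample of T14.

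Cd86, which resting dendritic cells and macrophages already carry, followed another course at T2. After 2 Gy × 5 it measured 154 at T2, 657 at T7, 204 at T14 and 195 at T21. In the 7.5 Gy × 1 arm it measured 158, 516, 239 and 87.6 in those phases. After 0 Gy it measured 241, 348, 166 and 60.7, and 249.9 at baseline. Both irradiated samples lay below the 0 Gy sample at T2 and above it in the 3 later phases.

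Icosl, which sustains T follicular helper and effector T cells through ICOS, measured 37.5 at T2, 166 at T7, 95.5 at T14 and 32.8 at T21 after 2 Gy × 5. After 7.5 Gy × 1 it measured 17.1, 133, 59.4 and 25.03. After 0 Gy it measured 59.8, 145 and 56.5 at T2, T7 and T14 and was not above background at T21, and it measured 31.7 at baseline. The 3 samples of T7 lay close together, and the 7.5 Gy × 1 sample of T2 was the lowest of those above background.

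Cd40 measured 67.4 at T2, 234 at T7, 85.3 at T14 and 57.4 at T21 after 2 Gy × 5. The 7.5 Gy × 1 samples were at 53.8, 198, 68.1 and 29.7. After 0 Gy it measured 49.1, 108, 53.2 and 25.6, and 107 at baseline. Within each phase the order was the same on this scale, with 2 Gy × 5 highest, then 7.5 Gy × 1, then 0 Gy. Many steps were within counting error. The interval of 7.5 Gy × 1 over 0 Gy included 0 at T2, T14 and T21, with 19 raw counts in each sample at T21. Between the regimens it included 0 at T2, T7 and T14. With median of ratios the 7.5 Gy × 1 sample of T21 was at −0.06 relative to 0 Gy.

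Tnfsf14 measured 71.5 at T2, 316 at T7, 185 at T14 and 145 at T21 after 2 Gy × 5. In the 7.5 Gy × 1 samples it was at 21.4, 355, 79.7 and 78.2. After 0 Gy it measured 52.2, 198, 78.1 and 40.5, and 56.9 at baseline. It had the widest swing after 7.5 Gy × 1, from the lowest sample of the series at T2 to the highest at T7.

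Tnfrsf14 measured 133 at T2, 562 at T7, 248 at T14 and 242 at T21 after 2 Gy × 5. After 7.5 Gy × 1 it measured 155, 501, 475 and 159.6. After 0 Gy it measured 141, 256, 206 and 113, and 163 at baseline. The 7.5 Gy × 1 sample of T14 stayed near the level of T7, where the other 5 genes of that sample did not.

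**Figure D1:**
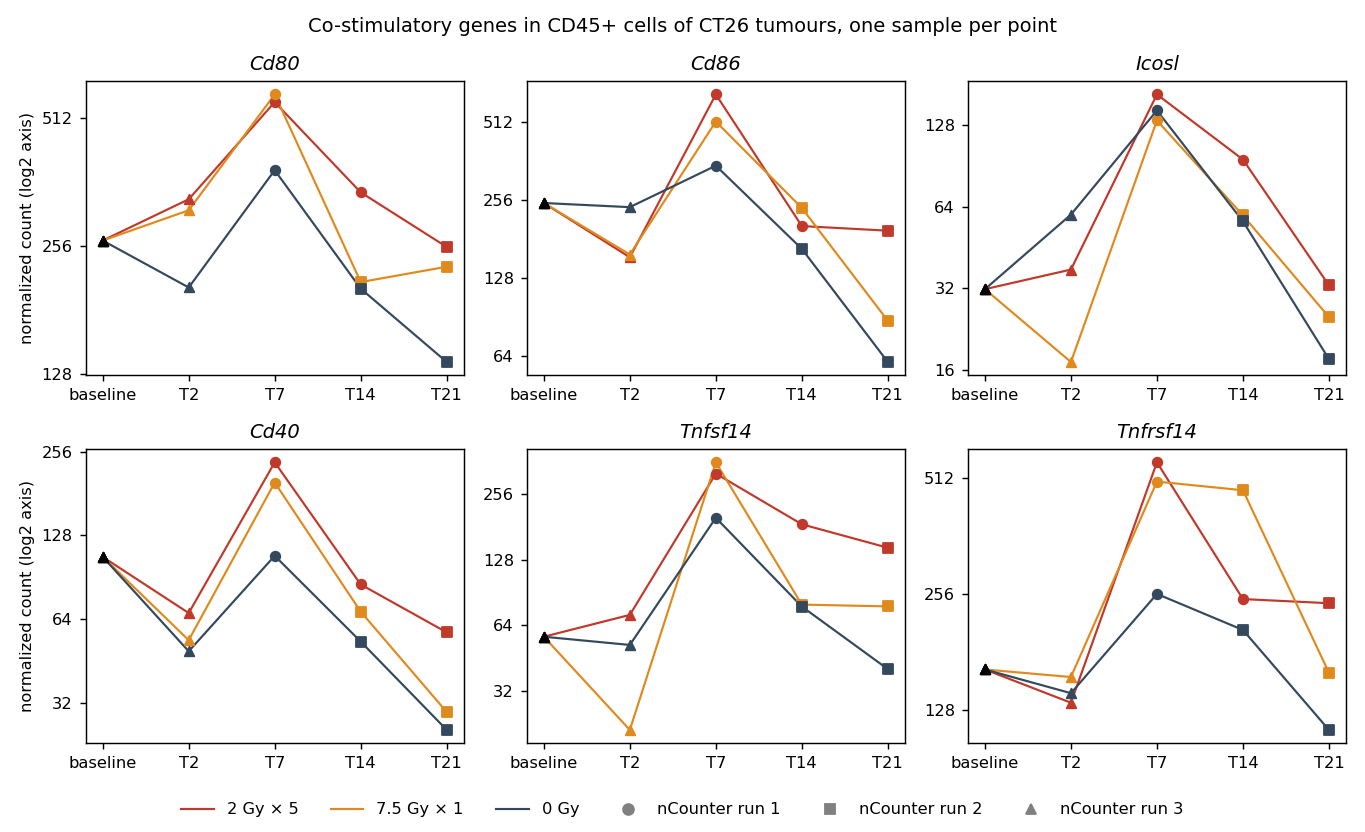
Normalized counts (log2 axis) of the 6 genes by phase, 1 sample per point, with lines for 2 Gy × 5, 7.5 Gy × 1 and 0 Gy starting from the shared baseline sample and marker shapes for the nCounter run. On this housekeeping scale each gene is highest at T7 in each of the 3 arms, 18 of 18 gene and arm pairs, against 14, 13 and 6 with median of ratios, total endogenous counts and the pan-leukocyte genes, and Icosl and Tnfsf14 dip after 7.5 Gy × 1 at T2.

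On the same scale, in 30.6% of the 415 genes T7 was likewise the highest phase, baseline included, in each of the 3 arms. For 5 of the 6 genes, all but Tnfrsf14, the lowest of the 3 T7 samples exceeded the highest of the other 10 samples, as it did in 11.6% of the 415 genes. For Cd40 the margin was small, with 108.1 in the 0 Gy sample of T7 against 107.1 at baseline, counted in another run. That log2 ratio of 0.01 had an interval of −0.44 to 0.47. It was −0.19 with median of ratios, −0.38 with total endogenous counts and −0.54 with the pan-leukocyte genes.

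The upstream sequences of Icosl and Tnfsf14 are shown because these 2 genes were the ones at least 2-fold lower after 7.5 Gy × 1 at T2 and had the largest T7 over T2 changes. They are the 250 bases before the RefSeq start (GRCm38.p6), for Icosl chr10:78069118-78069367 on the plus strand and for Tnfsf14 chr17:57194182-57194431 on the minus strand, written 5′ to 3′ on the strand of the gene. The set of upstream sequences held 4 of the 6 genes, and not Cd86 and Cd40. Capitals mark matches to the searched motifs.
Icosl: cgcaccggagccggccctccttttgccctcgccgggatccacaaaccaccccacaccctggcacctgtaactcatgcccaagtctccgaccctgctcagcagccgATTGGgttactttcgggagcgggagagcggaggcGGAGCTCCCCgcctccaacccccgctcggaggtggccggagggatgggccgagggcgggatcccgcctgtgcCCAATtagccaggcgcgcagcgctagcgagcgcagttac
Tnfsf14: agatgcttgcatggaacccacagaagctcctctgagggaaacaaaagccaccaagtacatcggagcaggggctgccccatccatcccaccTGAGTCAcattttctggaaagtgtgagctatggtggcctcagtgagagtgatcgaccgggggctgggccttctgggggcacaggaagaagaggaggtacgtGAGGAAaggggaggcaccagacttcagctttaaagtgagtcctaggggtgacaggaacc

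The motifs, searched on both strands, were TTCNNNGAA (STAT), GAAANNGAAA (interferon regulatory factors), TGANTCA (AP-1), GAGGAA (an ETS core of the PU.1 type), CCAAT and the NF-kB consensus. Icosl held CCAAT at 2 places and 1 NF-kB match, and Tnfsf14 held 1 AP-1 and 1 GAGGAA match. Of 32851 upstream windows of this length, 33.8% held CCAAT, 7.25% the NF-kB consensus, 6.75% AP-1 and 23.3% GAGGAA. Among the other members with an upstream sequence, Cd80 held 1 AP-1 match and Tnfrsf14 1 GAAANNGAAA match, which 2.98% of all windows held. None of the 4 windows held TTCNNNGAA, found in 7.02% of all. Icosl was rich in G and C, at 68.8% against a median of 52.4%, whereas Tnfsf14 had 56%. A match is only a run of letters and says nothing of binding in these cells.

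At T2, when the 2 Gy × 5 course may not have been complete, the B7 ligands Cd80 and Cd86 moved in opposite directions relative to the unirradiated tumor, after both regimens and within 1 nCounter run. Cd80 was higher by 0.69 (95% interval 0.41 to 0.98) on the log2 scale after 2 Gy × 5 and by 0.60 (0.31 to 0.90) after 7.5 Gy × 1. Cd86 differed by −0.64 (−0.95 to −0.34) and −0.61 (−0.92 to −0.29). No interval included 0, although Cd86 after 7.5 Gy × 1 turned to 0.16 on a pan-leukocyte scale. Of the 415 genes 3.61% were at least 1.5-fold higher and 8.92% at least 1.5-fold lower than 0 Gy after both regimens, as these 2 genes were.

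The ratio of Cd80 to Cd86 counts within a sample does not depend on scaling. It was taken after the values had been seen, and the probes' efficiencies make its size meaningless apart from differences between samples. At T2 it was 2.14 (1.82 to 2.52) after 2 Gy × 5 and 1.96 (1.64 to 2.36) after 7.5 Gy × 1, against 0.847 (0.667 to 1.07) after 0 Gy and 1.05 at baseline. The 2 irradiated samples thus lay above both unirradiated ones with no overlap of the intervals. At T7 it was 0.848 after 2 Gy × 5 and 1.13 after 7.5 Gy × 1, against 1.11 after 0 Gy. At T14 the 2 regimens gave 1.68 and 0.879, against 1.22 after 0 Gy, and at T21 they gave 1.30 and 2.61, against 2.24. In none of the later phases did both regimens lie on one side of 0 Gy with separate intervals.

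The 7.5 Gy × 1 sample of T2 stood apart for Icosl and Tnfsf14. Relative to 0 Gy, Icosl differed by −1.81 (−2.66 to −0.995) and Tnfsf14 by −1.29 (−2.09 to −0.50) on the log2 scale, from 20 and 25 raw counts against 39 and 34. These were 2 of the 6 genes at least 2-fold lower, a call that 17.1% of the 415 genes met in that sample. After 2 Gy × 5 Icosl differed by −0.67 (−1.30 to −0.04) and Tnfsf14 by 0.46 (−0.12 to 1.06). Cd40 and Tnfrsf14 had intervals that included 0 after both regimens. The same 7.5 Gy × 1 sample had the lowest summed levels of T2 for monocyte and macrophage markers, 2237 against 5096 after 0 Gy, and for dendritic cell markers, 532 against 818, and the highest for CD45-negative cell markers, 7482 against 4895. Their part in the result was not tested.

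The count of Tnfsf14 over that of Tnfrsf14 in the same sample, a ratio also taken after the values had been seen, separated the regimens at T2 and at T14. At T2 it was 0.536 (0.418 to 0.685) after 2 Gy × 5 and 0.137 (0.0866 to 0.209) after 7.5 Gy × 1, against 0.370 (0.242 to 0.553) after 0 Gy. At T14 it was 0.748 (0.646 to 0.865) and 0.168 (0.124 to 0.224), against 0.379 (0.265 to 0.534). In both phases the 7.5 Gy × 1 sample was the lowest with no overlap of the intervals, but different genes set it apart. At T2 Tnfsf14 was at 21.4 against 52.2 after 0 Gy, with Tnfrsf14 at 155 against 141. At T14 Tnfsf14 was at 79.7 against 78.1, with Tnfrsf14 at 475 against 206. At T14 the 2 Gy × 5 sample was counted in another run. The order of the arms in the ratio at T2 and T14 did not hold in the other phases. At T7 the ratio was 0.562 after 2 Gy × 5 and 0.710 after 7.5 Gy × 1, against 0.776 after 0 Gy, and at T21 it was 0.599 and 0.490, against 0.357.

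**Figure D2:**
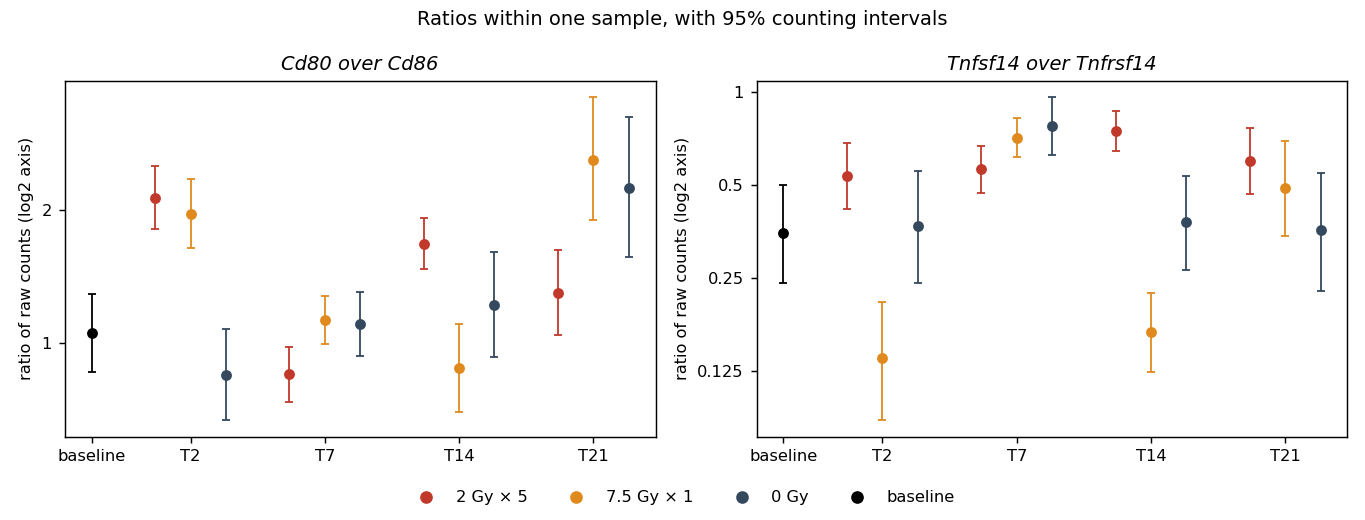
Ratio of raw counts of 2 probes within 1 sample (log2 axis) by phase, for Cd80 over Cd86 and for Tnfsf14 over Tnfrsf14, with 95% counting intervals as bars. At T2 the Cd80 to Cd86 ratio is 2.14 and 1.96 in the irradiated samples, against 0.847 after 0 Gy, and the Tnfsf14 to Tnfrsf14 ratio is lowest after 7.5 Gy × 1 at T2 and T14.

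At T7, within 1 run, 5 of the 6 genes exceeded 0 Gy under either regimen with intervals that excluded 0. The log2 differences after 2 Gy × 5 were 0.53 for Cd80, 0.92 for Cd86, 1.11 for Cd40, 0.67 for Tnfsf14 and 1.14 for Tnfrsf14. After 7.5 Gy × 1 they were 0.59, 0.57, 0.87, 0.84 and 0.97. Icosl was the exception, at 0.20 (−0.19 to 0.59) and −0.12 (−0.50 to 0.26). At least 2-fold higher were 2 genes after 2 Gy × 5, Cd40 and Tnfrsf14, and 0 after 7.5 Gy × 1, calls that 19.3% and 22.2% of all genes met. The median of the 6 genes was 0.79 and 0.72 beside a median of all genes of 0.42 and 0.48, so that the gap to all genes was 0.37 and 0.23 on the log2 scale. With the pan-leukocyte genes as the scale the median of the 6 was −0.13 and −0.21, while the summed level of those genes was 5181 and 5411 in these samples, against 3005 after 0 Gy.

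At T14 the regimens differed in which gene stood out. The 7.5 Gy × 1 sample, in the same run as 0 Gy, had Tnfrsf14 higher by 1.21 (0.90 to 1.52) and Cd86 by 0.52 (0.16 to 0.90), whereas Cd80, Icosl and Tnfsf14 were at 0.05, 0.07 and 0.03. The 2 Gy × 5 sample, in another run than 0 Gy, had Tnfsf14 higher by 1.25 (0.80 to 1.72), Icosl by 0.76, Cd80 by 0.75 and Cd40 by 0.68, all with intervals above 0. One gene was at least 2-fold higher after each regimen, a call that 15.9% of all genes met after 2 Gy × 5 and 11.8% after 7.5 Gy × 1. With total endogenous counts the 2 Gy × 5 values of Tnfsf14, Icosl, Cd80 and Cd40 were 0.67, 0.18, 0.17 and 0.10, and Tnfrsf14 after 7.5 Gy × 1 was at 0.97. Summed neutrophil markers were at 52402 after 2 Gy × 5, against 13372 after 0 Gy. In the 7.5 Gy × 1 sample T cell markers were at 616 and NK cell markers at 174, against 365 and 78.1 after 0 Gy. Their part in these differences was not tested.

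At T21, within 1 run, all 6 genes exceeded 0 Gy under either regimen. The log2 differences after 2 Gy × 5 were 1.84 (1.24 to 2.48) for Tnfsf14, 1.69 (1.19 to 2.20) for Cd86, 1.16 (0.35 to 2.03) for Cd40, 1.09 (0.71 to 1.49) for Tnfrsf14 and 0.90 (0.54 to 1.26) for Cd80. Icosl was at 1.57-fold the background of the 0 Gy sample, and the interval of its measured ratio (−0.13 to 2.00) included 0. After 7.5 Gy × 1 Tnfsf14 was higher by 0.95 (0.27 to 1.65), Cd80 by 0.75 (0.37 to 1.13) and Tnfrsf14 by 0.49 (0.06 to 0.93). The intervals of Cd86, Cd40 and Icosl (−0.64 to 1.69 for Icosl) included 0, and Icosl was at 1.2-fold the background of the 0 Gy sample. Of the 6 genes 4 were at least 2-fold higher after 2 Gy × 5, beside 35.2% of all genes, and 0 after 7.5 Gy × 1, beside 14% of all genes. The summed level of the pan-leukocyte genes was 2392 after 2 Gy × 5 and 1500.1 after 7.5 Gy × 1, against 856 after 0 Gy, and that of neutrophil markers 24975 and 14730.1, against 5357. Their part in these differences was not tested. The median of the 6 genes over 0 Gy was 1.13 after 2 Gy × 5 and 0.52 after 7.5 Gy × 1, beside 0.71 and 0.21 for all genes. Over baseline, counted in another run, the median of the 6 was −0.90 in the 0 Gy sample (−0.71 for all genes). It was −0.002 after 2 Gy × 5 and −0.27 after 7.5 Gy × 1. On the pan-leukocyte scale the median of the 6 over 0 Gy was below 0 (−0.34 after 2 Gy × 5 and −0.33 after 7.5 Gy × 1).

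**Figure D3:**
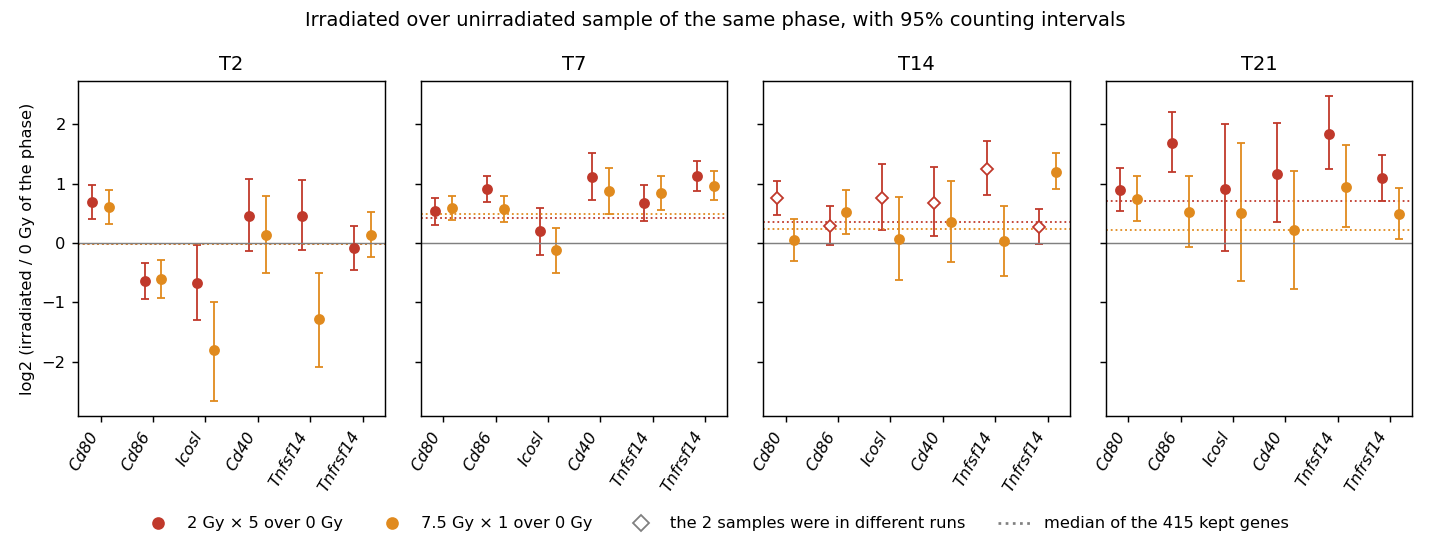
Log2 ratio of the irradiated over the 0 Gy sample for the 6 genes at each phase, with 95% counting intervals as bars, open diamonds where the 2 samples were counted in different runs, and dotted lines at the median of the 415 kept genes. At T2 Cd80 lies above 0 and Cd86 below it after both regimens, and at T21 all 6 genes lie above 0, on the housekeeping scale (with the pan-leukocyte genes Cd86 turns at T2 after 7.5 Gy × 1, and at T21 only Tnfsf14 and, after 2 Gy × 5, Cd86 stay above 0). Icosl at T21 is drawn at its measured ratio, although its 0 Gy count was not above background.

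Between the regimens, Tnfsf14 showed the widest gap. It was higher after 2 Gy × 5 than after 7.5 Gy × 1 by 1.74 (1.10 to 2.44) at T2, by 1.22 (0.80 to 1.66) at T14 across runs and by 0.89 (0.39 to 1.40) at T21, and differed by −0.17 (−0.43 to 0.08) at T7. Icosl was higher by 1.13 (0.37 to 1.95) at T2, and Cd86 by 1.16 (0.70 to 1.63) at T21. Tnfrsf14 differed by −0.94 (−1.15 to −0.73) at T14 across runs. At least 2-fold higher were 2 genes at T2, 1 at T14, Tnfsf14, and 1 at T21, calls that 14.2%, 9.88% and 18.6% of all genes met. The summed level of neutrophil markers differed between the same samples, with 8067 after 2 Gy × 5 against 689 after 7.5 Gy × 1 at T2, 19517 against 49625 at T7, 52402 against 9094 at T14 and 24975 against 14730.1 at T21. It was thus higher after 2 Gy × 5 in the 3 phases in which Tnfsf14 was, and its part in that difference was not tested.

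Tested across the 4 phases with edgeR's quasi-likelihood test, with phase as a block, none of the 6 genes passed an adjusted p of 0.05 between arms. For 2 Gy × 5 over 0 Gy the calls were 0 of 415 genes (0%), with 70 at an unadjusted p under 0.05 and 40 called by DESeq2. The log2 fold changes were 0.71 ± 0.30 (SE) for Tnfsf14, with an edgeR adjusted p of 0.231, and 0.51 ± 0.23 for Cd40, with an adjusted p of 0.256. For 7.5 Gy × 1 over 0 Gy edgeR called 1.2% of the genes and none of the 6, with Tnfrsf14 at 0.51 ± 0.24 and Icosl at −0.58 ± 0.31 (adjusted p of 0.444 and 0.523). For 2 Gy × 5 over 7.5 Gy × 1 it called 0%, with 26 genes at an unadjusted p under 0.05 and 1 called by DESeq2, and Tnfsf14 was at 0.70 ± 0.30 (adjusted p of 0.673).

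By edgeR more genes were called between phases than between arms. Every T7 sample was counted in another run than every T2 sample, so run and phase cannot be told apart in T7 over T2. With arm as a block, edgeR called 4 of the 6 genes higher at T7 than at T2 and 27.2% of all genes. Tnfsf14 rose by 1.90 ± 0.35 (SE, adjusted p 0.00133), Icosl by 1.30 ± 0.33 (0.00563), Cd40 by 0.84 ± 0.25 (0.0119) and Tnfrsf14 by 0.78 ± 0.27 (0.0252). Cd86, at 0.65 ± 0.29 (edgeR adjusted p 0.0692), and Cd80, at 0.08 ± 0.26 (0.822), did not pass. With housekeeping factors in place of the TMM factors all 6 passed, at a median of 1.58 beside 0.78 for all genes. Scaled to the pan-leukocyte genes only Tnfsf14 passed as higher, Cd80 passed as lower, and all genes had a median of −1.0. Over all genes the calls were 113 higher and 108 lower with TMM factors, 183 and 21 with housekeeping factors, and 16 and 208 with the pan-leukocyte genes. Without the 7.5 Gy × 1 arm Tnfsf14 alone passed, and without the 2 Gy × 5 arm Cd40 and Tnfrsf14 did not.

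After T7 most fitted values were below 0. For T14 over T7 edgeR called Cd40 alone lower, by −0.91 ± 0.25 (adjusted p 0.0414), among 3.86% of genes called lower, a call lost when any one arm was left out. The 2 samples of the 2 Gy × 5 arm that shared a run gave T14 over T7 differences below 0 for all 6 genes on the housekeeping scale, from −1.69 (−1.90 to −1.49) for Cd86 and −1.46 (−1.79 to −1.12) for Cd40 to −0.71 (−0.90 to −0.51) for Cd80. The median of all genes over baseline in these samples was 0.58 at T7 and 0.19 at T14. With the pan-leukocyte genes Cd80 over baseline was at −0.40 and −0.42 in the same 2 samples, Tnfsf14 at 0.99 and 0.90 and Icosl at 0.91 and 0.79. Cd86, at −0.09 and −1.10, Cd40, at −0.35 and −1.13, and Tnfrsf14, at 0.31 and −0.19, stayed lower at T14 on that scale. For T14 over T7 the calls over all genes were 20 higher and 16 lower, against 6 and 47 with housekeeping factors and 10 and 1 with the pan-leukocyte genes. For T21 over T14 edgeR called none of the 6, with 3.61% of genes lower (8 higher and 15 lower in all, against 0 and 56 with housekeeping factors and 47 and 5 with the pan-leukocyte genes), and Icosl was at −1.06 ± 0.36 (adjusted p 0.075). The 7.5 Gy × 1 and 0 Gy samples of T14 and T21 shared a run, and in both arms Cd86 (−1.45 and −1.45), Cd40 (−1.20 and −1.05) and Tnfrsf14 (−1.57 and −0.86) were lower at T21 with intervals below 0, on the housekeeping scale. Icosl was lower by −1.25 (−2.18 to −0.38) after 7.5 Gy × 1, and after 0 Gy it was not above background at T21. The median of all genes over baseline also fell from T14 to T21, from 0.24 to −0.41 after 7.5 Gy × 1 and from −0.12 to −0.71 after 0 Gy. With the pan-leukocyte genes the 0 Gy values over baseline rose from −1.27 to −0.89 for Cd40 and from 0.09 to 0.66 for Tnfrsf14. Cd86 was then nearly level after 0 Gy (−0.84 and −0.86), whereas after 7.5 Gy × 1 Cd86, Cd40 and Tnfrsf14 stayed lower at T21.

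**Figure D4:**
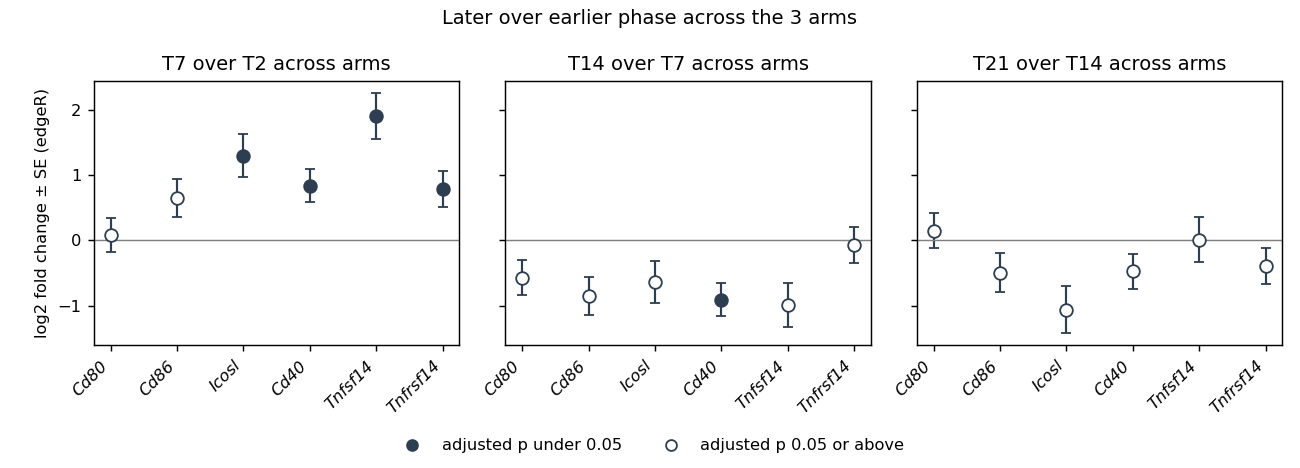
Log2 fold change of the later over the earlier phase across the 3 arms for the 6 genes, from edgeR with arm as a block, with bars of 1 SE and filled points where the adjusted p was under 0.05. With TMM factors Tnfsf14, Icosl, Cd40 and Tnfrsf14 rose at T7 over T2, which were counted in different runs, and Cd40 fell at T14 over T7. Scaled to the pan-leukocyte genes only Tnfsf14 passed as higher at T7 over T2.

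Against baseline, all 6 genes were at least 2-fold higher at T7 after 2 Gy × 5, 5 of them after 7.5 Gy × 1 (all but Cd40) and 2 after 0 Gy (Icosl and Tnfsf14), beside 37.6%, 41.7% and 19% of all genes. These comparisons cross runs. Tnfsf14 was higher by 2.47 after 2 Gy × 5 and by 2.64 after 7.5 Gy × 1, against 1.80 after 0 Gy, all relative to baseline, and Tnfrsf14 by 1.79 and 1.62, against 0.65. At T2, in the run of the baseline sample, Cd40 was lower by −0.67 (−1.11 to −0.23) after 2 Gy × 5, −0.99 (−1.49 to −0.50) after 7.5 Gy × 1 and −1.13 (−1.76 to −0.52) after 0 Gy. Cd40 and Cd86 were below baseline in each of the 9 samples of T2, T14 and T21 on the housekeeping scale, as were 8.19% of all genes. For Cd86 the intervals of the 0 Gy sample of T2 (−0.05) and the 7.5 Gy × 1 sample of T14 (−0.06) included 0. For Cd40 that of the 2 Gy × 5 sample of T14 did (−0.33, −0.73 to 0.08). With the pan-leukocyte genes Cd86 turned to 0.35 after 7.5 Gy × 1 and to 0.18 after 0 Gy at T2, Cd40 to 0.02 after 7.5 Gy × 1 at T2, and the 0 Gy value of Cd86 was also above 0 with median of ratios (0.11) and total endogenous counts (0.03). At T21 Cd86 and Cd40 were the 2 genes at least 2-fold lower than baseline after 7.5 Gy × 1 (25.3% of all genes) and after 0 Gy (38.1%).

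Partners of these molecules, and genes related to those partners, were measured in part. Of 9 such genes 4 were kept, with Ctla4, the inhibitory receptor of CD80 and CD86, at 22 to 188 raw counts, Icos at 10 to 125, Ltbr, a receptor of LIGHT, at 25 to 378 and Ltb, which encodes lymphotoxin beta, at 26 to 278. Cd28, the activating receptor of CD80 and CD86, and Cd160, a receptor of HVEM, were above background in none of the 13 samples, with at most 9 counts. Cd40lg was above background in 3 samples, Btla in 4 and Lta in 5. One of the 4 kept genes passed for T7 over T2, with Ltb at 1.47 (edgeR adjusted p 0.00302) and at 0.58 when scaled to the pan-leukocyte genes. Ctla4, at 0.48, Icos, at 0.15, and Ltbr, at −0.44, did not (0.337, 0.793 and 0.276). The 4 genes had a median of 0.31, beside −0.01 for all genes.

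Of the other co-signalling ligands on the panel 4 of 6 were kept, and 3 rose at T7 over T2 by edgeR. These were Cd48, a ligand of CD2 and CD244, at 1.15 (adjusted p 0.00461), Cd274, which encodes the inhibitory ligand PD-L1, at 0.91 (0.0187), and the adhesion molecule Icam1 at 0.79 (0.0316), and none of the 3 passed when scaled to the pan-leukocyte genes. Pdcd1lg2, which encodes PD-L2, fell by 1.68 (0.00276), but did not pass with housekeeping factors (−0.88) or limma (−0.95). Of 12 genes of CD40 and TNF receptor signalling, 9 were called lower at T7 than at T2 (26% of all genes) and 0 higher, but 0 were lower and 1 higher with housekeeping factors. All 7 kept MHC class II genes were called higher (27.2% of all genes), with a median of 1.87, against 3 of the 7 and a median of 0.957 with the pan-leukocyte genes.

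The marker levels moved with the same phases. At T7 the summed levels over the 3 arms were 12523 to 15205 for monocyte and macrophage markers, against 2237 to 5096 at T2, and 1421 to 1817 for dendritic cell markers, against 532 to 818. Neutrophil markers were at 17153 to 49625 at T7, against 689 to 8067 at T2, and pan-leukocyte genes at 3005 to 5411, against 877 to 1300. B cell markers were at 180.5 to 215 at T7, against 82.9 to 112. T cell markers were at 376 to 675 at T7, against 175 to 281 at T2, and NK cell markers at 165 to 495, against 54.7 to 88.9. The summed level of CD45-negative cell markers went the other way, with 1744 to 2980.2 at T7, against 3327 to 7482. A sum weighs the strongest probes most. For T7 over T2 edgeR called 5 of these 6 markers lower with TMM factors (median −1.42) but 1 with housekeeping factors (median −0.65). The part of these cells in the levels of the 6 genes was not tested.

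Over the 13 samples the 6 genes were correlated with each other, with Pearson's r of the log2 values between 0.64 (Cd80 and Tnfrsf14) and 0.95 (Cd86 and Cd40) and a median of 0.77 over 15 pairs. The median over all 85905 pairs of kept genes was 0.28. The samples share runs, phases and scaling factors, so these values describe the series and are not independent of them. The genes most like Cd80 were Il18 (r = 0.94), Il1rn (0.94) and Ifi35 (0.92), those most like Cd86 were Fyn (0.97), Ccr7 (0.97) and Ikbkb (0.94), and those most like Icosl were Il17ra (0.97), Clec5a (0.96) and Ctsc (0.96). Cd40 was most like Ikbkb (0.96), Myd88 (0.95) and Icam1 (0.95), and Tnfsf14 was most like Il1r2 (0.98), a decoy receptor of interleukin-1, Entpd1 (0.96) and Ifnar1 (0.96). Tnfrsf14 was most like Gzmb (0.98) and Prf1 (0.96), which encode the cytotoxic proteins granzyme B and perforin, and Map4k1 (0.95).

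Differences from 0 Gy depended on what the samples were scaled to. Of the 48 values of the 6 genes in the 8 irradiated samples, 41 were above 0 with housekeeping genes, 35 with median of ratios, 30 with total endogenous counts and 20 with the pan-leukocyte genes. Cd80 at T2 was above 0 under all 4 scalings after both regimens. Cd86 at T2 was below 0 under all 4 after 2 Gy × 5 but at 0.16 after 7.5 Gy × 1 with the pan-leukocyte genes. Icosl and Tnfsf14 in the 7.5 Gy × 1 sample of T2 were below 0 under all 4. At T21 after 2 Gy × 5 only Tnfsf14, at 0.37, and Cd86, at 0.21, were above 0 with the pan-leukocyte genes. The median of the 6 genes was above that of all genes in 6 of the 8 irradiated samples and below it in the 7.5 Gy × 1 samples of T2 and T14. A scaling factor moves every gene of a sample alike, so this gap is the same under each scaling by construction.

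**Figure D5:**
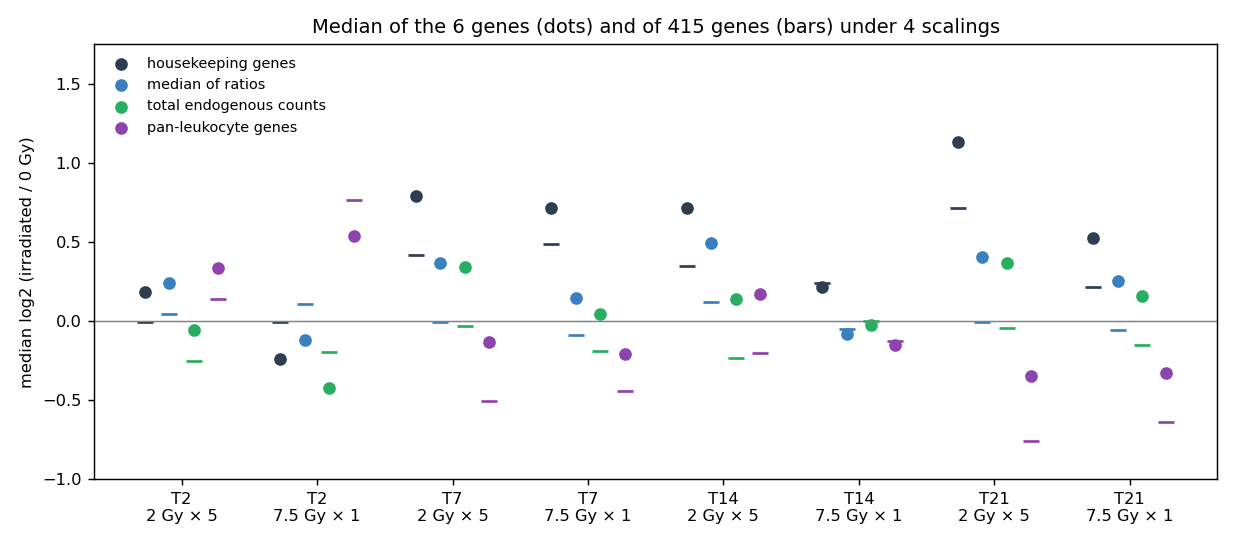
Median log2 ratio over the 0 Gy sample for the 6 genes (dots) and for the 415 kept genes (bars) in each irradiated sample, under 4 scalings. Dots and bars shift together with the scaling, to below 0 at T7 and T21 with the pan-leukocyte genes.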

How the data were processed

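RNA of 13 samples, 1 per condition, was counted on an nCounter panel of 561 genes, 547 endogenous and 14 housekeeping. The deposited raw counts were read as whole probe counts. The deposited normalized values, a signal, were made by the authors with 1 factor per sample from the housekeeping genes and a floor at the negative controls, as a recomputation checked (0 of 7293 values differed). The software used by the authors is not given in the sources used here. Probe identifiers were matched to RefSeq symbols (549 of 561).

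Genes with a mean count above 13.1, the mean of the negative controls plus 2 SD averaged over samples, were kept (415 of 547). Ratios between 2 samples are log2 ratios of normalized values, called at 2-fold, with exact binomial 95% intervals. Fits across the 12 samples after baseline used edgeR 4.0.16 (R 4.3.3), TMM factors, phase plus arm, and Benjamini-Hochberg adjusted p under 0.05, tested on simulated data. Samples of other phases or arms served as replicates, so p-values measure the spread of these samples. The methods give 3 mice per group for this assay, and nothing states whether the 1 sample of a group is a pool of them or a single mouse. Phases were matched to T2, T7, T14 and T21 by their order.

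Named genes were the 6 members, the genes past the edgeR threshold in the 2 co-signalling lists, and the 3 genes most correlated with each member. Members and lists were chosen with earlier results of these data known. Alternatives were DESeq2 1.42.0, limma 3.58.1 and other scalings, filters, thresholds and sample sets. The ratios within a sample and the adjacent phases within a run were added after the values had been seen.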

Additional observations from a re-analysis of the deposited data

Results flagged for a closer look

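For Cd86 the 2 irradiated samples lay below the 0 Gy sample at T2 and above it in the 3 later phases, on the housekeeping scale. At T2 the log2 difference of Cd86 was −0.64 (2 Gy × 5) or −0.61 (7.5 Gy × 1). It was 0.92 or 0.57 at T7, then 0.29 or 0.52 at T14, and 1.69 or 0.53 at T21. The intervals of the 2 Gy × 5 sample of T14 (−0.03 to 0.63) and the 7.5 Gy × 1 sample of T21 (−0.06 to 1.13) included 0. With the pan-leukocyte genes Cd86 was at −0.50 or 0.16 at T2 and −0.01 or −0.36 at T7. In the later phases it was then at −0.25 or 0.16 (T14) and 0.21 or −0.32 (T21), so the pattern did not hold on that scale. On the housekeeping scale the mean of the 2 regimens for Cd86 exceeded that of T2 by 1.37 in the T7 samples, by 1.03 in the T14 samples and by 1.73 in the T21 samples. Icosl was likewise below 0 Gy at T2 (−0.67 or −1.81) and above it at T14 (0.76 or 0.07) and T21, but not at T7, where it was at 0.20 or −0.12 with intervals that included 0. The interval of the 7.5 Gy × 1 value of T14 (−0.62 to 0.77) also included 0, and that value was −0.22 with median of ratios. For Icosl the mean at T14 exceeded that of T2 by 1.66. With the pan-leukocyte genes Icosl was at 0.21 or −0.30 at T14 and −0.57 or −0.34 at T21. At T21 the Icosl count after 0 Gy was not above background. Set against that background, the log2 ratios of Icosl at T21 were 0.65 or 0.26. Their mean exceeded that of T2 by 1.70, where the measured counts gave 1.95. Counting error is not part of these values, and the intervals of both measured ratios at T21 included 0. The T14 sample given 2 Gy × 5 was counted in another run than its 0 Gy sample. These differences between phases were not tested.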

How the results depend on the processing

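With 1 sample per condition, counts of 13 to 601 and 3 runs that follow the phases, the spread between animals could not be measured, and the run could not be separated from T7 over T2, from T14 over T7 outside the 2 Gy × 5 arm, from most comparisons with baseline or from the T14 sample given 2 Gy × 5 relative to the other arms. Replicate numbers could not pair samples, with 1 sample in each group, and the fits matched arms by phase and phases by arm as blocks instead. The cause of the changes below was not tested. For 2 Gy × 5 over 0 Gy, edgeR called 0 genes, against 40 by DESeq2, 10 with no filter, 1 with the pan-leukocyte genes and 0 to 3 with 1 phase left out. For 2 Gy × 5 over 7.5 Gy × 1 it called 0, against 1 by DESeq2. For 7.5 Gy × 1 over 0 Gy it called 5, against 15 by DESeq2, 2 without the T14 sample given 2 Gy × 5, 0 with housekeeping factors, limma, no block, the pan-leukocyte genes or total endogenous counts, and 0 to 3 with 1 phase left out. For T7 over T2 it called 221 genes, and 95 to 202 with 1 arm left out. For T14 over T7 it called 36, against 63 by DESeq2, 4 with no block, 11 with the pan-leukocyte genes or total endogenous counts and 0 to 21 with 1 arm left out. For T21 over T14 it called 23, against 97 by DESeq2, 56 with housekeeping factors, 64 by limma, 10 with no block, 52 with the pan-leukocyte genes, 12 with total endogenous counts, 6 without the T14 sample given 2 Gy × 5 and 0 to 21 with 1 arm left out.

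Of the 6 genes, 4 passed for T7 over T2, all higher, against 5 by DESeq2, 6 with housekeeping factors or limma and 1 to 4 with 1 arm left out. With the pan-leukocyte genes 2 passed, Tnfsf14 higher and Cd80 lower. For T14 over T7, 1 passed, against 3 by DESeq2, 4 with housekeeping factors, 2 by limma and 0 with no block, the pan-leukocyte genes, total endogenous counts, any arm left out or the T14 sample given 2 Gy × 5 left out. For T21 over T14, 0 passed, against 1 by DESeq2, 1 with housekeeping factors and 2 by limma. At least 2-fold higher than 0 Gy were 8 of 48 values, against 2 with median of ratios, 1 with the pan-leukocyte genes or total endogenous counts and 23 at a 1.5-fold threshold, and at least 2-fold lower were 2, against 1 with a pseudocount of 10 and 5 at 1.5-fold. Relative to baseline 17 of 72 values were higher, against 6 with the pan-leukocyte genes or total endogenous counts, and 7 lower, against 12 with total endogenous counts and 17 at 1.5-fold. Between the regimens 4 of 24 were higher after 2 Gy × 5, against 2 with the pan-leukocyte genes or total endogenous counts and 9 at 1.5-fold, and 0 lower, against 1 with each of these 3.

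Scaling to the pan-leukocyte genes changed the sign of 25 of the 48 values over 0 Gy and of 27 of the 72 over baseline. The changes named here are only for values past the edgeR threshold or past 2-fold under at least 1 of the scalings. For T7 over T2 the sign turned for Cd80 (−0.93), Cd40 (−0.15), Tnfrsf14 (−0.17), Cd274 (−0.04) and Icam1 (−0.17). The pan-leukocyte scale also turned Cd40 (−0.31) and Tnfrsf14 (−0.38) at T21 after 2 Gy × 5 relative to 0 Gy. Relative to baseline at T7 it turned Cd40 (−0.35), Cd80 (−0.40) and Cd86 (−0.09) after 2 Gy × 5 and Cd80 (−0.34) and Cd86 (−0.44) after 7.5 Gy × 1, and total endogenous counts turned that last value to −0.02.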
